A study of Mus musculus with 6 samples.

Results

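The 10 keratin genes described here mark the layers of the mammary epithelium: Krt5, Krt14, Krt15 and Krt17 the basal layer, Krt7, Krt8, Krt18 and Krt19 the luminal layer, and Krt1 and Krt10 the differentiated epidermis of the overlying skin. They were chosen by name, with earlier results of these data known. Each is shown by the array probe set annotated to that gene alone whose mean over all 6 arrays was highest. All 10 had such a probe set, among 18193 genes measured. Messenger RNA came from whole mammary glands, in 3 wild-type (WT) and 3 caveolin-3 knockout (Cav-3KO) samples with 1 array each. Both groups were untreated virgin females of the FVB/N background, aged 4 months. Caveolin-3 is the muscle form of the protein that shapes caveolae, small pits of the cell membrane, and the labels do not say which part of the gene was removed or in which cells. A whole gland holds fat, vessels, lymphocytes and often muscle beside its epithelium, so more cells of a type and more RNA per cell cannot be told apart. Since the labels leave unstated if the glands of a group are from separate animals, p-values measure only the spread between these arrays.

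Keratins are the intermediate filament proteins of epithelial cells. A filament is built from pairs of an acidic type I chain and a basic type II chain, and each layer of an epithelium uses its own pairs. In the mammary gland the contractile basal (myoepithelial) cells use the pair of Krt5 and Krt14, and the luminal cells that line ducts and make milk use Krt8 with Krt18 or Krt19. Krt1 and Krt10 pair in the upper layers of skin.

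In the knockout glands 7 of the 10 keratins rose and 0 fell. All 4 basal keratins rose, by 1.47-fold for Krt17 to 4.57-fold for Krt15. Of the luminal keratins Krt8, Krt18 and Krt19 rose by 1.81-fold to 1.89-fold, while Krt7 did not pass the test. Neither Krt1 nor Krt10 passed it. The test was limma with p adjusted over all probe sets by the Benjamini-Hochberg method and a threshold of 0.05, by which 7.65% of all genes were higher and 8.51% lower, 16.2% in all. At an unadjusted p under 0.05 the same counts, 7 and 0, were found among the keratins. In 7 of the 10 all knockout arrays lay above all wild-type arrays, as in 18.5% of all genes, and in 0 of the 10 they lay below, as in 19.8% of all genes. The median log2 difference, Cav-3KO minus WT, was 0.87 over the 10 keratins and −0.01 over all genes. Without WT 3 or Cav-3KO 1 only 3 keratins passed, Krt5, Krt14 and Krt15. Without Cav-3KO 3, Krt17 passed beside them, which made 4. Over all 18193 genes 1392 were higher in the main fit, 660 without WT 3, 1232 without Cav-3KO 1 and 629 without Cav-3KO 3.

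**Figure D1:**
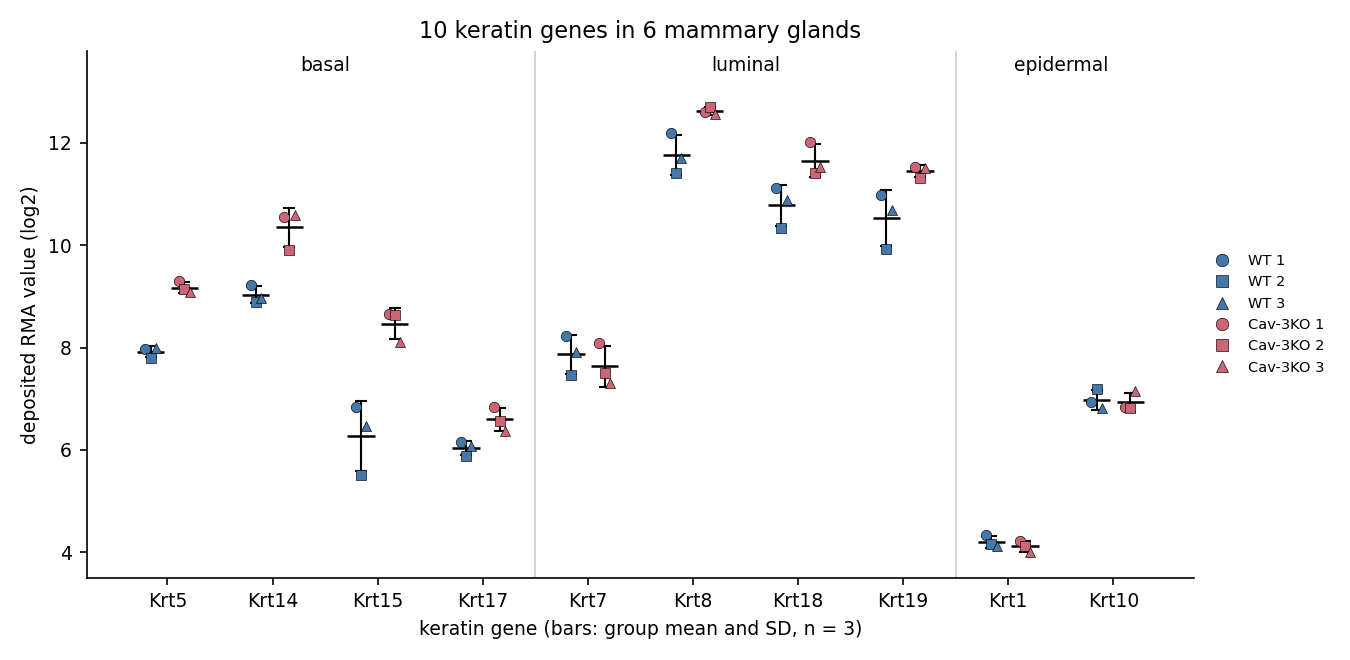
Deposited values (log2, vertical axis) of the 10 keratin genes (horizontal axis) in each gland, with the mean and SD of each group of 3. The WT and Cav-3KO points are apart for Krt5, Krt14, Krt15, Krt17, Krt8, Krt18 and Krt19, and overlap for Krt7, Krt1 and Krt10.

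Sequences before the start sites of 4 of these genes are given to set the luminal keratin that did not pass the test, Krt7, beside 3 that rose, the basal Krt5 and the filament partners Krt8 and Krt18. They come from RefSeq (build GRCm38.p6), whose table of promoter windows matched 6 of the 10 genes; the 4 shown have a window that lies at the edge of the annotated gene. Each holds 250 bases before the annotated start and 30 after it, read 5′ to 3′ on the gene's strand. Capitals mark the run ATAAANG, which resembles the core of a TATA box and was chosen after the sequences were read.
Krt5 (chr15:101712876-101713155, minus strand): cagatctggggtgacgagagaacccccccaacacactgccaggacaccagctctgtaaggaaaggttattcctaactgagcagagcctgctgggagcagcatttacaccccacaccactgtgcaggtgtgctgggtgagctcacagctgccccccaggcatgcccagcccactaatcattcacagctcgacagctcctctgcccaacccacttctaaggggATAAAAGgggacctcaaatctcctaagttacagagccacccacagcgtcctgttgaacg
Krt7 (chr15:101412153-101412432, plus strand): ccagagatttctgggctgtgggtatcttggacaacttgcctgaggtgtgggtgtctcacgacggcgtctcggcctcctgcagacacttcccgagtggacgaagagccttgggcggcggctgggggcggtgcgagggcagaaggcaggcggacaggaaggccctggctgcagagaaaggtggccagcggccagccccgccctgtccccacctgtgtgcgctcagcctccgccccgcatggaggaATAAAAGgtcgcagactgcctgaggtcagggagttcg
Krt8 (chr15:102004313-102004592, minus strand): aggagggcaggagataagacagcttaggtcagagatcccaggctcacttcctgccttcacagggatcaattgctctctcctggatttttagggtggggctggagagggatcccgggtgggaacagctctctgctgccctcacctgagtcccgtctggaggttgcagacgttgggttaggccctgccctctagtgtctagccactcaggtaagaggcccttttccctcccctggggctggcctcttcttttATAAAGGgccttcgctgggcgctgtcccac
Krt18 (chr15:102027966-102028245, plus strand): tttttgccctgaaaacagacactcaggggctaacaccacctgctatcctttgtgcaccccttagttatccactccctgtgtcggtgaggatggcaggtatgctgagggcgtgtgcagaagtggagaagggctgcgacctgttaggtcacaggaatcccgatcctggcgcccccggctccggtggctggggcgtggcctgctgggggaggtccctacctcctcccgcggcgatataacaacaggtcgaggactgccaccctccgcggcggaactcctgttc
The marked run began 29 bases before the annotated start in Krt5, 7 bases before it in Krt7 and at the start itself in Krt8, and was not found in Krt18. On either strand it occurred 2 times in Krt8 and in 12.4% of 32851 promoter windows of this length. TATAAA, which overlaps it, was found only in Krt8 of the 4 and in 13.1% of windows. The GC box GGGCGG occurred 4 times in Krt7 and in none of the other 3 windows shown (34.7% of all windows). GCCNNNGGC, a form of the AP-2 motif, occurred 2 times in Krt7 and 1 time in Krt18 (15.4% of windows). Neither TTCNNNGAA, the STAT motif (7.83%), nor TGANTCA, the AP-1 motif (7.46%), was found in the 4. These counts describe the letters of the windows only. GC content was 56.4% in Krt5, 65.7% in Krt7, 58.6% in Krt8 and 61.4% in Krt18, against a median of 52.5% over all windows.

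Krt5 (Entrez 110308, chromosome 15) encodes the type II keratin of basal cells. Its log2 values were 7.97, 7.79 and 7.99 in WT 1 to 3 and 9.29, 9.14 and 9.08 in Cav-3KO 1 to 3. The 3 knockout arrays lay more than 1 log2 unit above the 3 wild-type arrays, and arrays of a genotype were close to each other. The difference was 1.25 ± 0.10 (SE, 2.38-fold, adjusted p = 0.000977).

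Krt14 (Entrez 16664, chromosome 11) encodes the type I partner of Krt5. Its log2 values were 9.22, 8.90 and 8.97 in WT and 10.56, 9.91 and 10.59 in Cav-3KO, and rose by 1.32 ± 0.19 (2.50-fold, adjusted p = 0.00612). Cav-3KO 2 was lower than the other two knockout arrays but above every wild-type array. This probe set can bind related transcripts. Another set of the gene, not of that kind, changed by 1.32 ± 0.16 and a dimmer one by 0.63 ± 0.15, and all 3 passed. The mean of the dimmer set, 4.78, lay below 5.10, the background level given with Krt1 below. One further set, annotated to both Krt17 and Krt14 and so not used, differed by −0.17 (adjusted p = 0.331).

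Krt15 (Entrez 16665, chromosome 11), a type I keratin of basal cells of layered epithelia, had the highest fold of the 10. It was 6.83, 5.52 and 6.48 on the log2 scale in WT and 8.66, 8.63 and 8.11 in Cav-3KO. Wild-type arrays were spread over more than 1 log2 unit, with WT 2 lowest, and the groups did not overlap. Krt15 rose by 2.19 ± 0.32 (adjusted p = 0.00622).

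Krt17 (Entrez 16667, chromosome 11), a type I keratin of skin appendages and of myoepithelial cells, had the smallest of the changes that passed. Values were 6.16, 5.89 and 6.08 in WT and 6.83, 6.57 and 6.38 in Cav-3KO on the log2 scale. The groups did not overlap, with WT 1 and Cav-3KO 3 nearest to each other. The rise of 0.55 ± 0.14 (adjusted p = 0.0366) lost its call in 5 of the 6 fits that left out 1 array (adjusted p = 0.0580 to 0.111), and kept it without Cav-3KO 3 (0.0434). The second probe set of Krt17 was dim, with a mean of 3.23, and differed by 0.09 (adjusted p = 0.728). With both sets averaged the difference was 0.32 (adjusted p = 0.101).

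Krt8 (Entrez 16691, chromosome 15) encodes the type II keratin of luminal cells. Its log2 values were 12.19, 11.41 and 11.70 in WT and 12.61, 12.70 and 12.56 in Cav-3KO. The knockout arrays lay close together (SD 0.07) and above all wild-type arrays, which were more spread (SD 0.39). Krt8 rose by 0.86 ± 0.18 (1.81-fold, adjusted p = 0.0226), and its other 2 probe sets by 0.96 ± 0.18 and 0.95 ± 0.18. Each of the 3 sets can match several transcripts. The call was lost without WT 3, Cav-3KO 1 or Cav-3KO 3 (adjusted p = 0.0782, 0.0546 and 0.0691).

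Krt18 (Entrez 16668, chromosome 15), the type I partner of Krt8, was 11.12, 10.33 and 10.88 in WT and 12.02, 11.40 and 11.53 in Cav-3KO on the log2 scale. The lowest knockout array, Cav-3KO 2, was above the highest wild-type array, WT 1. Krt18 rose by 0.88 ± 0.23 (1.84-fold, adjusted p = 0.0451). It passed in 2 of the 6 fits that left out 1 array, those without WT 1 and without Cav-3KO 2. Without WT 2, WT 3, Cav-3KO 1 or Cav-3KO 3 the adjusted p was 0.101, 0.103, 0.106 and 0.105.

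Krt19 (Entrez 16669, chromosome 11), the smallest keratin and a type I chain of luminal cells, was 10.97, 9.92 and 10.69 in WT and 11.52, 11.31 and 11.51 in Cav-3KO. Again WT 2 was lowest, and the groups did not overlap. Krt19 rose by 0.92 ± 0.24 (1.89-fold, adjusted p = 0.0470). The call was lost without WT 3 or any 1 knockout array (adjusted p = 0.0948 without WT 3 and 0.110, 0.0604 and 0.141 without Cav-3KO 1, 2 and 3).

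Krt7 (Entrez 110310, chromosome 15), a type II keratin of simple and ductal epithelium, stood apart from the other luminal keratins. Its log2 values were 8.23, 7.46 and 7.92 in WT and 8.09, 7.501 and 7.31 in Cav-3KO. The groups overlapped, and the difference of −0.24 ± 0.24 (adjusted p = 0.593) had a 95% confidence interval of −0.80 to 0.32, whose upper bound is below the estimates for Krt8, Krt18 and Krt19.

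Krt1 (Entrez 16678, chromosome 15) and Krt10 (Entrez 16661, chromosome 11) form the keratin pair of differentiated epidermis. Krt1 was 4.34, 4.16 and 4.12 in WT and 4.23, 4.12 and 4.01 in Cav-3KO on the log2 scale. This is below the 95th percentile, 5.10, of 20 probe sets of Y-linked genes, which female glands should not express, so Krt1 was not told apart from background. Krt10 was 6.93, 7.19 and 6.81 in WT and 6.83, 6.82 and 7.14 in Cav-3KO. Neither passed, with differences of −0.09 ± 0.10 (adjusted p = 0.649, 95% confidence interval −0.32 to 0.15) and −0.05 ± 0.13 (adjusted p = 0.870, −0.36 to 0.26).

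One array was low for all epithelial keratins. Of the 3 wild-type arrays WT 2 held the lowest value for each of the 8 basal and luminal keratins, and WT 1 the highest for 7 of them. Among knockout arrays Cav-3KO 1 was highest for 6 of the 8. The mean of 12 skeletal muscle genes was 8.23, 9.31 and 5.87 in WT 1 to 3 and 5.28, 6.74 and 7.38 in Cav-3KO 1 to 3. Of the 6 arrays WT 2 had the highest muscle mean and Cav-3KO 1 the lowest. WT 1, highest for 7 keratins, had a higher muscle mean than WT 3. These orders are only described. With this mean as a covariate 3 of the 10 keratins passed, Krt5, Krt14 and Krt15, and Krt17, Krt8, Krt18 and Krt19 gave adjusted p of 0.103, 0.0689, 0.125 and 0.137. Their log2 differences were then 0.44, 0.82, 0.67 and 0.74. The muscle mean averaged 7.80 in WT and 6.47 in Cav-3KO, so the covariate shares part of the genotype difference. Over all genes 986 were higher with the covariate and 1392 without it. The lost keratin calls therefore cannot be assigned to muscle, whose part was not tested.

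Ratios of 2 keratins within an array were compared next; their level has no meaning between different probe sets, and only their change is read. The log2 ratio of the basal partners, Krt5 over Krt14, was −1.11 ± 0.14 (SD, n = 3) in WT and −1.18 ± 0.38 in Cav-3KO, a change of −0.07 ± 0.23 (SE). For the luminal partners Krt8 over Krt18 the change was −0.02 ± 0.22, and for Krt1 over Krt10 it was −0.04 ± 0.21. In the basal and the luminal pair the change was smaller than the spread between arrays of a genotype. The same held for Krt1 over Krt10, but Krt1 was not told apart from background, so that ratio does not describe a pair. Between the layers, Krt14 over Krt18 differed by 0.44 ± 0.24 with overlapping groups. Krt5 over Krt8 was −4.22, −3.61 and −3.72 in WT and −3.32, −3.57 and −3.48 in Cav-3KO, so that every knockout array was above every wild-type array. Its change of 0.40 ± 0.20 gave p = 0.1 by a two-sided exact permutation test, the smallest p that the 10 distinct splits of 6 arrays allow, and 0.5 when adjusted over the 5 pairs. Without WT 1 the change of Krt5 over Krt8 was 0.21, and without Cav-3KO 3 that of Krt14 over Krt18 was 0.27. The other 4 pairs gave exact p of 0.3 to 0.9, or 0.75 to 0.9 adjusted.

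Krt7 was also set against the other luminal keratins, a comparison chosen after the values were seen and therefore given without a test. The log2 ratio of Krt7 over Krt18 was −2.90, −2.86 and −2.96 in WT and −3.94, −3.90 and −4.22 in Cav-3KO. Within wild type the ratio was nearly constant (SD 0.05), although Krt7 and Krt18 themselves varied more (SD 0.38 and 0.41), and the groups did not overlap, with a change of −1.11. Against Krt8 the change was −1.10 and against Krt19 it was −1.16, with no overlap between groups in either. Of 3 basal ratios chosen in the same way, Krt15 over Krt5 differed by 0.94 and Krt17 over Krt14 by −0.77 without overlap, and Krt15 over Krt14 by 0.87 with overlapping groups.

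**Figure D2:**
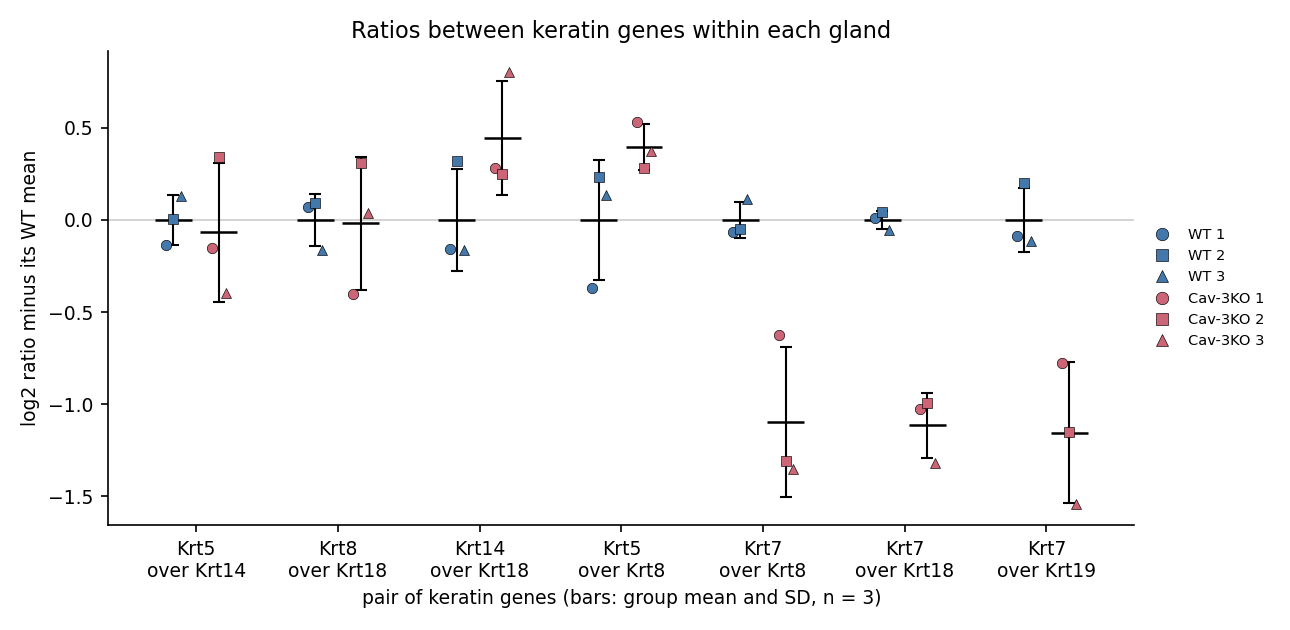
Log2 ratio of 2 keratins within each gland, minus the mean of that ratio in wild type (vertical axis), for 7 pairs (horizontal axis), with the mean and SD of each group of 3. Ratios of filament partners stay around 0, while the ratios of Krt7 to Krt8, Krt18 and Krt19 lie lower in all 3 knockout glands, with mean changes of −1.10, −1.11 and −1.16.

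Keratins were next read against other genes of their cell layer. Of 15 measured luminal genes outside the keratins 9 were higher and 3 lower, where 7.65% and 8.51% of all genes were. The median of the 15 was 1.06 on the log2 scale. Their mean per array was 8.35 to 8.85 in WT and 9.20 to 9.38 in Cav-3KO. The 3 with the smallest p were Spint2, a protease inhibitor of the epithelial surface, Cldn7, a tight junction protein, and Epcam, an epithelial adhesion molecule, which rose by 1.49 ± 0.09, 1.86 ± 0.14 and 1.55 ± 0.13. The 3 that fell, named after their values were seen, were Prom1, Esr1 (the oestrogen receptor) and Foxa1 (its cofactor), with differences of −1.58 ± 0.26, −0.55 ± 0.10 and −1.31 ± 0.31. Of 2 other genes of hormone-sensing luminal cells in the list, also chosen after their values were seen, Pgr, the progesterone receptor, differed by −0.03 ± 0.28 (adjusted p = 0.968) and Gata3, a luminal transcription factor, rose by 0.82 ± 0.12. Without WT 1, WT 3 or Cav-3KO 3 the number of lower luminal genes was 1. Minus the luminal list mean, Krt8, Krt18 and Krt19 differed by 0.17, 0.19 and 0.23 with overlapping groups. Krt7 on that scale was −0.62, −0.89 and −0.63 in WT and −1.29, −1.70 and −1.92 in Cav-3KO, without overlap. These relative values were read after the fits and carry no test.

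Among 12 genes of the basal layer other than keratins 9 rose and 0 fell, where 7.65% and 8.51% of all genes did. At an unadjusted p under 0.05 by limma also 0 fell. The median was 0.66 and the list mean 8.47 to 8.63 in WT and 9.20 to 9.39 in Cav-3KO. Acta2, smooth muscle actin, rose by 0.75 ± 0.10, Jag2, a Notch ligand, by 0.74 ± 0.10 and Lgr6, an R-spondin receptor, by 1.86 ± 0.26. Without WT 1, WT 3 or Cav-3KO 3 the number of higher genes was 5, 4 and 5. Minus the mean of these 12 genes, Krt5, Krt14 and Krt15 differed by 0.50, 0.57 and 1.44 with no overlap between groups, and Krt17 by −0.20 with overlap. The 12 genes themselves differed by 0.18 to 1.86, so these relative values depend on the genes in the mean. The mean includes smooth muscle actin, and a whole gland also holds vessels, so it may not stand for basal cells alone. Trp63 and Myh11, chosen after their values were seen, rose by 1.39 ± 0.24 and 0.53 ± 0.11, beside 1.25 for Krt5 and 1.32 for Krt14. 

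**Figure D3:**
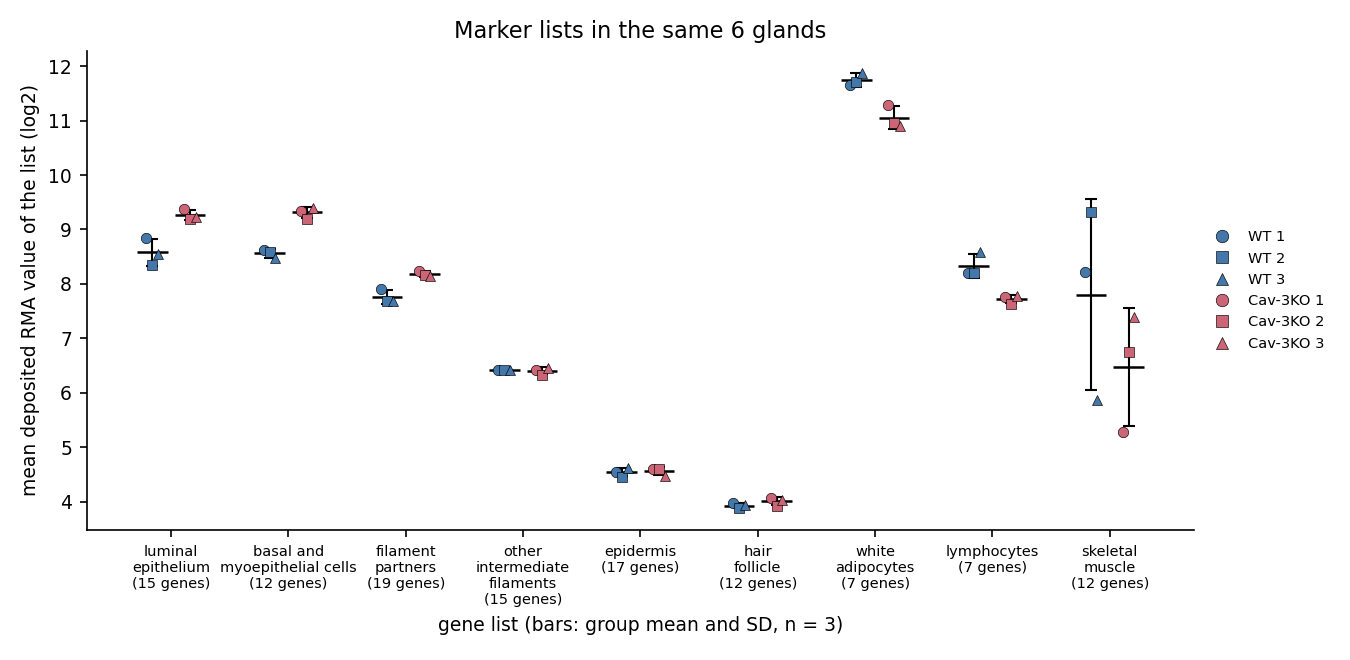
Mean log2 value of 9 gene lists (vertical axis) in each gland, with the mean and SD of each group of 3. The luminal, basal and filament partner means are higher in all 3 knockout glands, the adipocyte and lymphocyte means lower, and the epidermis, hair follicle and skeletal muscle means overlap.

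Skin was examined as another source of keratins. Of 17 epidermal genes 2 were higher and 0 lower, where 7.65% and 8.51% of all genes were. The median was −0.08, and the list mean was 4.46 to 4.61 in WT and 4.47 to 4.60 in Cav-3KO. Only 7 of the 17 had a mean above the Y-linked 95th percentile. The 7 were Sbsn, Casp14, Tgm3, Calml3, Cdsn, Sprr1a and Asprv1, and the 10 below it included loricrin (Lor), filaggrin (Flg), involucrin (Ivl), Krt2 and Dsg1a, examples chosen after their values were seen. The 3 with the smallest p were Calml3, a calmodulin relative, which rose by 1.72 ± 0.28, Sbsn, suprabasin, which rose by 0.92 ± 0.25 (adjusted p = 0.0488), and Sprr1a, an envelope protein, with −1.43 ± 0.45 (adjusted p = 0.0788). With Cav-3KO 3 left out 2 epidermal genes were higher, and with any other array left out 1 was. Of 12 hair follicle genes 0 passed limma in either direction, where 16.2% of all genes did. Only 4 of the 12 had a mean above the Y-linked 95th percentile, which limits this count. The keratins in that list are counted again among the other keratins below. At an unadjusted p under 0.05, 1 was higher and 0 lower, and 1 was higher without Cav-3KO 2. The list mean was 3.88 to 3.97 in WT and 3.92 to 4.07 in Cav-3KO. Padi3, Tchh and Krt81 had the smallest p there, with differences of 1.28 (adjusted p just above the threshold), −0.30 (0.233) and −0.10 (0.505).

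Other tissues of the gland went the other way or varied widely. Of 7 white adipocyte genes 5 were lower and 0 higher, where 8.51% and 7.65% of all genes were. Their list mean was 11.65 to 11.88 in WT and 10.91 to 11.29 in Cav-3KO. Retn (resistin), Cidec, a lipid droplet protein, and Pnpla2, a lipase, fell by 0.78 ± 0.10, 0.68 ± 0.11 and 0.60 ± 0.12. Of 7 lymphocyte genes 5 were lower and 0 higher, beside the same shares of all genes. Their mean was 8.20 to 8.59 in WT and 7.64 to 7.77 in Cav-3KO. The B cell gene Ms4a1 fell by 0.88 ± 0.11, Ptprc, the leukocyte common antigen, by 0.48 ± 0.10 and the T cell gene Cd3g by 0.80 ± 0.19. Counts of lower adipocyte genes were 3, 3 and 2 without WT 1, WT 3 or Cav-3KO 3, and leaving out any 1 array left 1 to 3 lower lymphocyte genes. None of 12 muscle genes passed limma, where 16.2% of all genes did. At an unadjusted p under 0.05, 1 was lower (2 passed limma without WT 3). Of these genes Myl1, Mylpf and Myh2 had the smallest p, with differences of −1.57, −1.38 and −1.33 and adjusted p of 0.0563, 0.336 and 0.343. The part of these tissues in the keratin differences was not tested, and the muscle covariate cannot tell it.

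Among 38 other keratin genes with a probe set 1 rose and 2 fell, where 7.65% and 8.51% of all genes did. Of the 10 keratins 7 rose and 0 fell. The level of the other keratins limits this: 17 of the 38 had a mean above the Y-linked 95th percentile. Krt23, a type I keratin, was 5.92, 5.17 and 5.86 in WT and 7.79, 6.92 and 7.26 in Cav-3KO, with WT 2 lowest once more. It rose by 1.67 ± 0.26 (3.19-fold, adjusted p = 0.00819), and 1 other keratin was higher in each fit that left out 1 array. Krt79, a type II keratin of hair canal and sebaceous duct in mouse skin, was 6.86, 6.77 and 7.26 in WT and 6.32, 6.21 and 6.21 in Cav-3KO. Its fall of 0.71 ± 0.14 (adjusted p = 0.0161) left no overlap. Krt36, a hair keratin, was 6.73, 6.85 and 6.70 in WT and 6.19, 6.36 and 6.41 in Cav-3KO (−0.44 ± 0.10, adjusted p = 0.0251). Without WT 1, 2 or 3 or Cav-3KO 1 only 1 keratin fell, and without Cav-3KO 3 none did. The medians were −0.00 over 19 other type I genes and −0.03 over 19 other type II genes.

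Type I keratin genes lie together on mouse chromosome 11 and type II genes, with Krt18 at their edge, on chromosome 15. Genes that rose stood beside genes that did not pass. Krt15 and Krt19, one basal and one luminal, are neighbours 4.86 kb apart with no annotated gene between them. Neighbours that did not pass were picked by position, with their values known. Krt16 lies between Krt14 and Krt17 and differed by 0.12 ± 0.10 at a level below the Y-linked 95th percentile. On chromosome 15, Krt8 and Krt18 are 23.9 kb apart. Krt78, next to Krt8 on its other side, was 6.59 ± 0.11 (SD, n = 3) in WT and 6.31 ± 0.13 in Cav-3KO (adjusted p = 0.137).

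**Figure D4:**
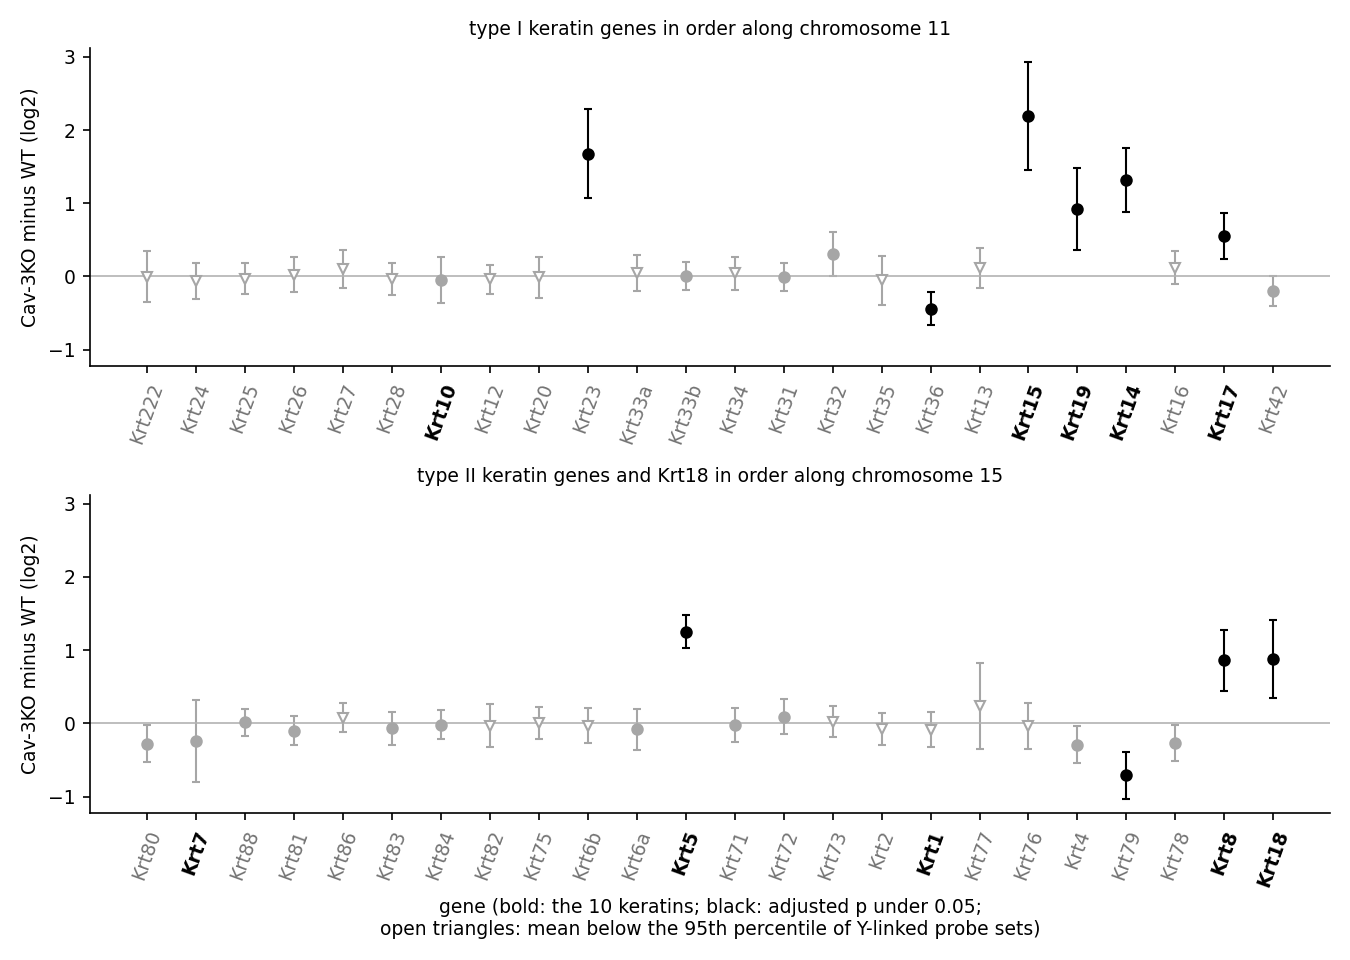
Log2 difference, Cav-3KO minus WT (vertical axis, with 95% confidence interval from limma), of the 24 measured keratin genes on each of chromosomes 11 and 15, in their order along the chromosome (horizontal axis, not to scale). Black points passed at adjusted p under 0.05, and open triangles are genes whose mean was below the 95th percentile of Y-linked probe sets. The 8 genes with a positive difference that passed are Krt23, Krt15, Krt19, Krt14, Krt17, Krt5, Krt8 and Krt18.

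Keratin filaments are anchored at desmosomes and hemidesmosomes. Of 19 measured genes in the list of filament partners 9 were higher and 0 lower, where 7.65% and 8.51% of all genes were. The median was 0.38 and the list mean 7.68 to 7.90 in WT and 8.14 to 8.24 in Cav-3KO. Dsg2, a desmosomal cadherin, was 8.55, 8.10 and 8.21 in WT and 9.55, 9.89 and 9.84 in Cav-3KO and rose by 1.47 ± 0.15. Pkp3, a plakophilin of the desmosomal plaque, rose by 1.10 ± 0.14 and Itga6, the integrin chain of hemidesmosomes, by 1.25 ± 0.16. The plakins that bind keratin directly did not pass: desmoplakin (Dsp) differed by 0.09 ± 0.23, plectin (Plec) by −0.02 ± 0.09 and Dst by −0.22 ± 0.10, examples chosen after their values were seen. Higher genes numbered 5 without WT 2, WT 3 or Cav-3KO 1, and 4 without Cav-3KO 3 or with the muscle covariate. Without probe sets that can match several transcripts 5 of 15 were higher.

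Intermediate filament genes other than keratins, nuclear lamins among them, were also counted. Of 15 measured 0 were higher and 2 lower by limma, where 7.65% and 8.51% of all genes were, or 3 and 3 at an unadjusted p under 0.05, with a median of −0.07 and a list mean of 6.41 to 6.42 in WT and 6.33 to 6.46 in Cav-3KO. Of the 15, 9 had a mean above the Y-linked 95th percentile. Desmin (Des), the filament of muscle, fell by 0.74 ± 0.13 and Nefh, a neurofilament, by 0.55 ± 0.10. Lmnb2, a nuclear lamin, differed by 0.65 ± 0.19 (adjusted p = 0.0600). Vimentin (Vim), the filament of stromal cells, chosen after its value was seen, was 11.71 ± 0.13 (SD, n = 3) in WT and 11.46 ± 0.33 in Cav-3KO (adjusted p = 0.377). Without Cav-3KO 3, 1 of the 15 was lower, and without Cav-3KO 1 or 2, 1 and 2 were higher.

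For 3 keratins the genes with the nearest profile over the 6 arrays were listed, measured as the root mean square difference in log2 after each profile was centred on its own mean. Nearest to Krt14 were Hook2 (0.0920), Sertad4 (0.0921) and Fhdc1 (0.0953). Nearest to Krt18 were Trpm6 (0.132), Tpbg (0.133) and Hepacam2 (0.141). Nearest to Krt10, whose profile is almost flat, were Drc1 (0.0287), Plpbp (0.0308) and Mettl5 (0.0308). Among the keratins themselves Krt18 and Krt19 were 0.170 apart, Krt8 and Krt19 0.178, Krt8 and Krt18 0.223 and Krt5 and Krt14 0.233. The layers were not separate by this measure. The basal Krt17 was nearer to Krt18 (0.251) and Krt8 (0.252) than to Krt5 (0.359), Krt14 (0.463) or Krt15 (0.882). Krt5 was nearer to Krt8 (0.282) and Krt18 (0.294) than to Krt17 or Krt15 (0.593). Krt7 was nearer to Krt1 (0.263), which was not told apart from background, than to Krt8 (0.599), Krt18 (0.567) or Krt19 (0.627). With 6 arrays in 2 groups such distances follow the genotype difference above all.

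Array medians lay between 5.77 and 5.804, and correlations over all probe sets were 0.990 to 0.995 within a genotype and 0.977 to 0.987 between genotypes. Cav3, the gene disrupted in the knockout, was 4.79, 5.02 and 4.74 in WT and 4.76, 4.83 and 4.72 in Cav-3KO (difference −0.08 ± 0.10, adjusted p = 0.679). That level is below the Y-linked 95th percentile, so it gave no check of the genotypes, and the groups rest on the labels.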

How the data were processed

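Single-channel oligonucleotide arrays measured 6 whole glands in 2 groups. The deposited log2 intensities are RMA output, as the submitters' processing notes name that tool; the authors left them on the log2 scale. That procedure corrects background, equalises the distributions of the arrays and summarises the probes of a set, which removes shifts shared by most genes and compresses folds of dim sets. Its version and the genome build are not given in the sources used here, and no batch is given in the labels.

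Of 45101 probe sets 64 controls were left out and 45037 were tested without a filter. By the platform annotation 34945 had 1 gene symbol, 932 several (not named) and 9160 none listed. Symbols were updated by Entrez identifier from RefSeq (GRCm38.p6), which also gave coordinates and promoter windows. Each gene is shown by its set with the highest mean.

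Genotypes were tested by lmFit and eBayes of limma 3.58.1 under R 4.3.3 (genotype only, two-sided, 4 residual degrees of freedom). P-values were adjusted by Benjamini-Hochberg over all tested sets, with a threshold of 0.05. Errors of limma differences are moderated standard errors. Those of ratio changes are ordinary standard errors from the variances of both groups. Ratios of keratins were compared with exact permutation tests over arrays. The limma step was tested on simulated data. Figures used matplotlib 3.10.9. With 3 arrays a group, array number limits the precision.

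The members and lists were chosen with earlier results of these data known. Named are the 10 keratins, Cav3, other keratins that passed, the 3 smallest p of each list (luminal, basal, epidermis, hair follicle, adipocyte, muscle, lymphocyte, filament partners, other intermediate filaments) and the 3 genes nearest to each of Krt14, Krt18 and Krt10; others were chosen after their values were seen. Dsg3, Areg, Plin1, Cfd and Adrb3 had no single-gene probe set. Same-numbered arrays were not paired: correlations of their deviations from the group means were −0.05, 0.19 and −0.02.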

Additional observations from a re-analysis of the deposited data

How the results depend on the processing

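With 3 arrays a group, Krt5, Krt14 and Krt15 passed in 12 other alternatives and in the 6 fits that left out 1 array, while Krt17, Krt8, Krt18 and Krt19 lie near the threshold. Cyclic loess, a second quantile normalization, centring of arrays, a filter at the Y-linked 95th percentile and the replicate number as a block each left 7 keratins higher (of 9 measured with the filter). A variance prior with trend and array weights left 6, without Krt19 (adjusted p = 0.0549 and 0.0544), and averaged probe sets left 6, without Krt17. At an adjusted p under 0.01 and with the muscle covariate 3 were higher, and leaving out 1 array gave 3 to 6. Over all genes 1392 were higher in the main fit, 446 at 0.01, 986 with the covariate and 629 to 1718 with 1 array left out. Leaving out Krt8, whose probe sets can all match several transcripts, with Krt7 and Krt10, 6 of 7 were higher. Other keratins that fell numbered 1 without such probe sets, 0 at 0.01, 1 with the covariate and 0 to 2 with 1 array left out. Over 116 list genes, 29 higher and 15 lower became 16 and 4 at 0.01, 23 lower at 0.10, and 19 to 30 higher and 5 to 14 lower with 1 array left out. The replicate block gave 27 higher and 16 lower, and changed no keratin call. The difference of Krt10 changed sign with array weights (0.00683) and the covariate (0.0950), and ranged from −0.152 to 0.0600 with 1 array left out (above 0 without WT 2, Cav-3KO 1 or Cav-3KO 2), never past the threshold. Ratios were recomputed under cyclic loess, a second quantile normalization and with 1 array left out; the last gave changes of −0.27 to 0.10 for Krt5 over Krt14, −0.18 to 0.17 for Krt8 over Krt18 and −0.17 to 0.12 for Krt1 over Krt10. The cause of these shifts was not tested.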
